A study of Mus musculus with 6 samples.

Results

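The Zfp genes are the mouse genes named for zinc finger proteins by a number, a family whose products mostly bind DNA. All genes of the deposited table whose symbol was Zfp followed by a number were taken, except Zfp36 and Zfp473, which the selection left out. These were 301 of 13426 genes (2.24%), and 69 of the 370 annotated genes with such a symbol had no row, Zfp57, Zfp423 and Zfp819 among them. RNA was sequenced from sorted bone marrow precursors of B cells at the early LPre-B stage, large cycling pre-B cells gated, among other markers, as lineage-negative, B220+, sIgM-, CD43+, CD2- cells of high forward scatter. All mice carried Upf1 Flox/Flox, in which loxP sites flank internal exons of the RNA helicase gene Upf1. The 3 control (Ctrl) libraries came from Mb1 +/+ mice, and the 3 cKO libraries came from Mb1 Cre/+ mice, in which Cre is expressed from the B lineage gene Cd79a (Mb1). Per the study's methods the mice were of C57BL/6 background, 8 to 16 weeks of age, age-matched and of both sexes, and which age and sex stood behind each library is not given in the sources used here. Controls carried no Cre, so an effect of Cre itself cannot be told apart from that of the deletion.

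Most Zfp proteins carry tandem C2H2 zinc fingers, small folds in which a pair of cysteines and a pair of histidines hold a zinc ion and whose exposed residues read DNA bases. Many also carry a KRAB domain, which recruits the corepressor TRIM28 (KAP1), and through it the histone methyltransferase SETDB1 and HP1 proteins. These KRAB proteins are best known for silencing retrotransposons and for keeping imprints, and their genes lie in tandem clusters that grew by duplication. Other members have single roles, in transcription, in RNA processing, in ribosome assembly or on the mitotic spindle. UPF1 is the central helicase of nonsense-mediated mRNA decay (NMD), which degrades transcripts that end translation too early.

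Libraries held between 9732498 and 11006834 recovered reads. Values are normalised reads, close to reads per 1e6 but scaled by the authors' effective library sizes. The Upf1 gene-level value did not fall in the libraries labelled cKO (260, 203 and 259 in Ctrl against 308, 283 and 300 in cKO, log2 fold change 0.31, SE 0.09, adjusted P = 0.00696). The row sums the whole gene, so it does not check the deletion, and the label is used as given. Of the 12 B lineage markers all had a row, and their summed value ranged from 2316 to 2591 in Ctrl and from 2965 to 3206 in cKO. Of these 7 were called higher and 1 lower, beside 27.7% and 25% of all genes, the background for every marker list here. Neutrophil and monocyte markers (12 of 12 with a row) summed to between 72.5 and 190 in Ctrl and between 401 and 549 in cKO, with 5 called higher and 1 lower. For T and NK cells 3 of 9 markers had a row, and the summed value was 64.2 to 93.1 in Ctrl and 28.3 to 31.4 in cKO. Of these 3 markers 1 was called higher and 1 lower. Erythroid and megakaryocyte markers (4 of 8) summed to at most 4.97 in any library, plasma cell markers (4 of 4) to 72.1 to 88.5 in Ctrl and 52.7 to 66.0 in cKO, and stromal markers (3 of 4) to 81.0 to 109 in Ctrl and 91.2 to 94.3 in cKO. No erythroid or megakaryocyte marker was called, 2 plasma cell markers were lower, and 1 stromal marker was higher. The part of these other cells in the Zfp results was not tested. Fewer cells of a type and less RNA per cell cannot be told apart in such bulk libraries.

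Single members moved in both directions, while the summed level of the family depended on the scaling. The normalised values of the 301 genes summed to 9029, 8750 and 9207 in Ctrl and to 8781, 8708 and 8961 in cKO, so the groups overlapped. As a share of all recovered reads they made up 0.837%, 0.785% and 0.89% in Ctrl and 0.923%, 0.943% and 0.969% in cKO, with groups apart. By limma, 75 members were called higher and 51 lower in cKO at an adjusted P below 0.05, and 175 were not called. That is 41.9% of members called, against 52.7% of all genes. The share called higher was 24.9% (27.7% of all genes) and the share called lower 16.9% (25% of all genes). The median log2 fold change of the members was 0.08, beside 0.01 for all genes, and the extremes were 1.48 and -1.25. A called rise of at least 1 on the log2 scale was seen for 16 members (5.32%, against 7.5% of all genes) and a called fall of that size for 2 (0.664%, against 3.54%). Values of Ctrl and cKO libraries did not overlap for 154 members, against 58.8% of all genes. Of these 93 were higher and 61 lower in cKO, beside 30.9% and 28% of all genes. Exons of 93 members overlap another annotated gene, and of these 20 were called higher and 27 lower, against 53 and 24 of the 205 members without overlap.

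The balance between rises and falls rested on the scaling of the libraries. With every library set to the same median, 59 members were called higher and 75 lower (22.8% and 32.1% of all genes). With quantile normalisation the counts were 59 and 66 (24.8% and 27.9% of all genes). Scaled by total reads, which moved the median of all genes from 0.01 to 0.19, they were 120 and 22 (38.5% and 14.4% of all genes). A direction for the family as a whole therefore cannot be given, and the single genes below are described relative to the authors' scaling. Under these scalings, the replicate block, voom, edgeR, DESeq2, eBayes without trend and both other pseudocounts alike, 52 of the 75 rises and 22 of the 51 falls were called in the same direction, and 50 and 22 of them also with each library left out in turn.

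**Figure D1:**
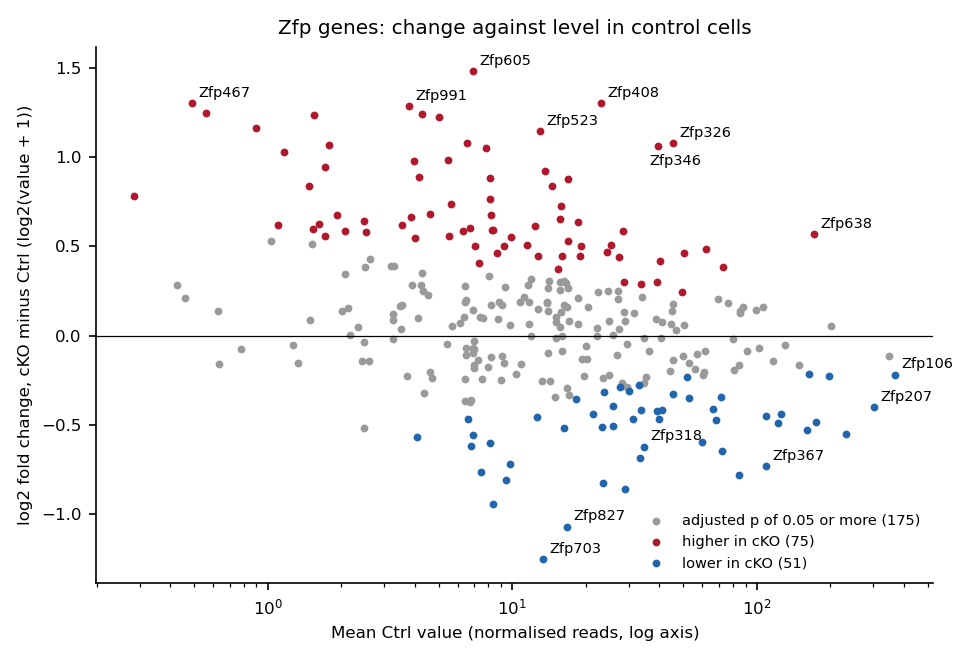
Log2 fold change (cKO minus Ctrl, on log2(value + 1)) of each of the 301 Zfp genes against its mean Ctrl value in normalised reads on a log axis, coloured by the limma call. The 75 genes called higher lie mostly to the left, at low Ctrl values, and the 51 called lower mostly to the right, with Zfp605 at 1.48 and Zfp703 at -1.25 as the extremes.

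Most members were low genes. The median member had 137 reads per Ctrl library, 10 members had fewer than 10, and the lowest had 2.33. The family was divided into 4 equal level classes by mean Ctrl value, with limits at 6.39, 14.01 and 33.0 normalised reads. The lowest class held 30 members called higher and 1 called lower of 76, and the highest class 10 higher and 26 lower of 75. Among other genes the share called lower also rose over the classes, while the share called higher was largest in class 2. In class 1, the lowest, 39.5% of members and 28.8% of 3934 other genes were called higher, and 1.32% and 9.79% were called lower. In class 2 25.3% of members and 34.3% of other genes were higher, and 13.3% and 16.8% lower. In class 3 21.3% and 32.8% were higher, and 18.7% and 20.9% lower. In class 4 13.3% of members and 22% of 4884 other genes were higher, and 34.7% and 39.8% lower. The median log2 fold changes of members fell from 0.31 over 0.10 and 0.08 to -0.13, and those of other genes from 0.18 over 0.13 and 0.05 to -0.13. Averaged over the 4 classes, members minus other genes came to -4.599 percentage points called higher and -4.829 called lower. The first became -0.324 with total reads, -2.67 with eBayes without trend and -2.82 without cKO replicate 1, and the second -7.78 without cKO replicate 2. These differences between members and other genes were not tested.

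A split by control values favours rises among low genes, and the table holds only genes above 0.5 reads per 1e6 in at least 3 libraries. For 2 members, Zfp108 and Zfp697, no Ctrl library reached that level, so they entered through the cKO libraries alone. Members with fewer than 3 such Ctrl libraries, Zfp467 and Zfp993 among them, also needed cKO libraries to pass. A rise in these members was thus favoured by the filter, and their calls are not independent of it. Split by the mean over all 6 libraries instead, the lowest class held 28.9% of members called higher and 7.89% lower, beside 25.8% and 12.6% of other genes, so that members and other genes lay closer there. In the highest class by that mean 48% of members and 63% of other genes were called.

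**Figure D2:**
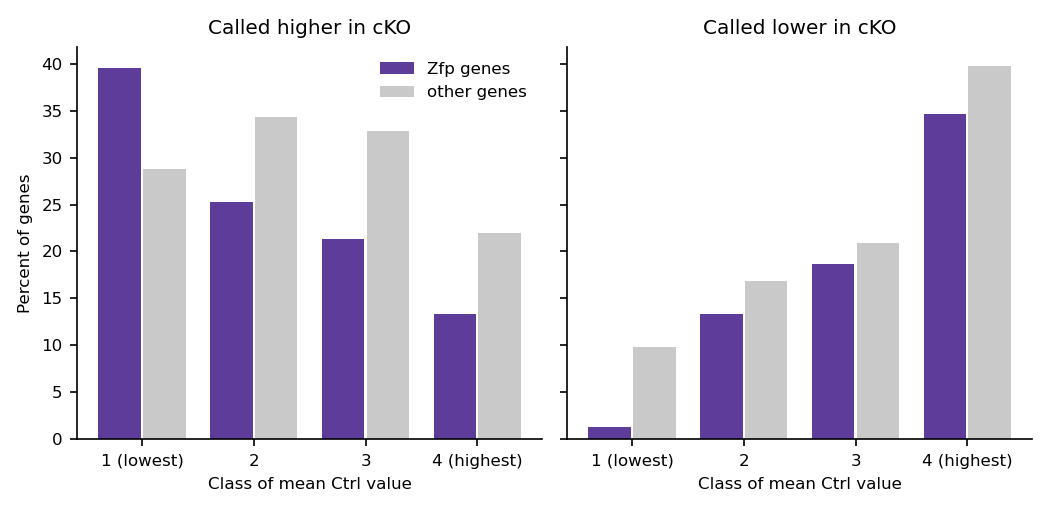
Percent of Zfp genes (purple) and of all other genes in the same range (grey) called higher (left) and lower (right) in cKO, in 4 classes of the mean Ctrl value. The share of Zfp genes called higher falls from 39.5% to 13.3% from the lowest to the highest class, and the share called lower rises from 1.32% to 34.7%.

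The largest rises were seen among genes of low or middle level. Zfp605 (chr5:110110028-110131536, GRCm38.p6), a protein of 12 C2H2 fingers, measured 6.002, 6.62 and 8.19 in Ctrl and 23.3, 20.5 and 19.4 in cKO (log2 fold change 1.48, SE 0.15, adjusted P = 2.16e-07). Every cKO library was above every Ctrl library, by 3.03-fold in the mean. Zfp408 (chr2:91642756-91650051), whose human counterpart is mutated in inherited retinal disease, had 22.2, 23.2 and 24.2 in Ctrl and 62.9, 53.4 and 59.6 in cKO (1.30, SE 0.10, adjusted P = 6.16e-09), with groups far apart. Zfp523 (chr17:28177196-28205886), the closest relative of the promoter-binding activator Zfp143 (55.8% identical protein), rose from 15.03, 11.97 and 12.06 to 29.9, 31.1 and 28.5 (1.14, SE 0.13, adjusted P = 5.6e-07), while Zfp143 itself was not called (0.09, adjusted P = 0.484). Zfp938 rose from 5.26, 5.10 and 4.72 to 12.6, 13.8 and 12.9 (1.23, SE 0.16, adjusted P = 3.63e-06).

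The other large rises began from lower mean Ctrl values. Zfp467, an enhancer of adipocyte differentiation, had 3, 2 and 8 reads in Ctrl and 37, 20 and 30 in cKO, or 0.372, 0.253 and 0.844 against 3.66, 1.85 and 2.57 normalised reads (log2 fold change 1.30, SE 0.24, adjusted P = 0.000158). With so few reads the pseudocount holds the fold down, and edgeR gave 2.55 for it on the log2 scale. The Zfp467 row passed the filter only with cKO libraries counted. Zfp937 rose from 1.75, 1.67 and 1.24 to 4.34, 4.10 and 6.87 (1.24, SE 0.22, adjusted P = 0.000121). Zfp991, Zfp992, Zfp993 and Zfp982, the remaining 4 of the 10 largest, are neighbours on chromosome 4 and are described with the chromosomal runs. Apart from Zfp991 and Zfp992, none of these 10 has a closest family protein of 90% identity or more, and Zfp993 has no coding transcript in GENCODE to compare.

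The largest falls were smaller, and none began near 0. Zfp703 (chr8:26977336-26981462), a transcriptional corepressor with no consensus C2H2 finger in its protein, measured 13.8, 12.1 and 14.5 in Ctrl and 4.15, 5.27 and 5.86 in cKO (log2 fold change -1.25, SE 0.17, adjusted P = 6.26e-06). Each cKO library was below each Ctrl library, by 2.64-fold in the mean. Zfp827 (chr8:79027486-79193768), which brings the NuRD remodelling complex to telomeres, fell from 18.1, 17.5 and 14.6 to 7.17, 8.07 and 7.04 (-1.07, SE 0.15, adjusted P = 9.82e-06). Zfp707 fell from 9.08, 6.92 and 9.09 to 3.85, 3.11 and 4.68 (-0.94, SE 0.19, adjusted P = 0.000438). Both groups stayed apart for each of these genes.

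Among the other 7 largest falls, Zfp367, a regulator of cell cycle genes, and Zfp422 were the most abundant. Zfp367 had 120, 98.7 and 111 in Ctrl and 60.0, 65.8 and 70.8 in cKO (log2 fold change -0.73, SE 0.09, adjusted P = 2.69e-06), and Zfp422 had 75.3, 92.5 and 85.7 against 48.7, 44.9 and 52.7 (-0.78, SE 0.10, adjusted P = 2.26e-06). Zfp513 (-0.86), Zfp653 (-0.82), Zfp316 (-0.81), Zfp296 (-0.76) and Zfp7 (-0.72) made up the 10, with adjusted P between 7.79e-05 for Zfp513 and 0.00414 for Zfp296. Exons of Zfp513 overlap Snx17, those of Zfp296 overlap Gemin7, and those of Zfp653, Zfp703, Zfp827, Zfp367 and Zfp7 overlap non-coding genes, so reads of these pairs cannot be told apart where counting ignored strand. The same limit holds for other called members described here, namely Zfp605, Zfp523, Zfp346, Zfp593, Zfp984, Zfp689 and Zfp963 among the rises, with Zfp617 (which overlaps Zfp882), and Zfp91 (Cntf), Zfp106, Zfp384, Zfp26, Zfp39 and Zfp706 among the falls.

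**Figure D3:**
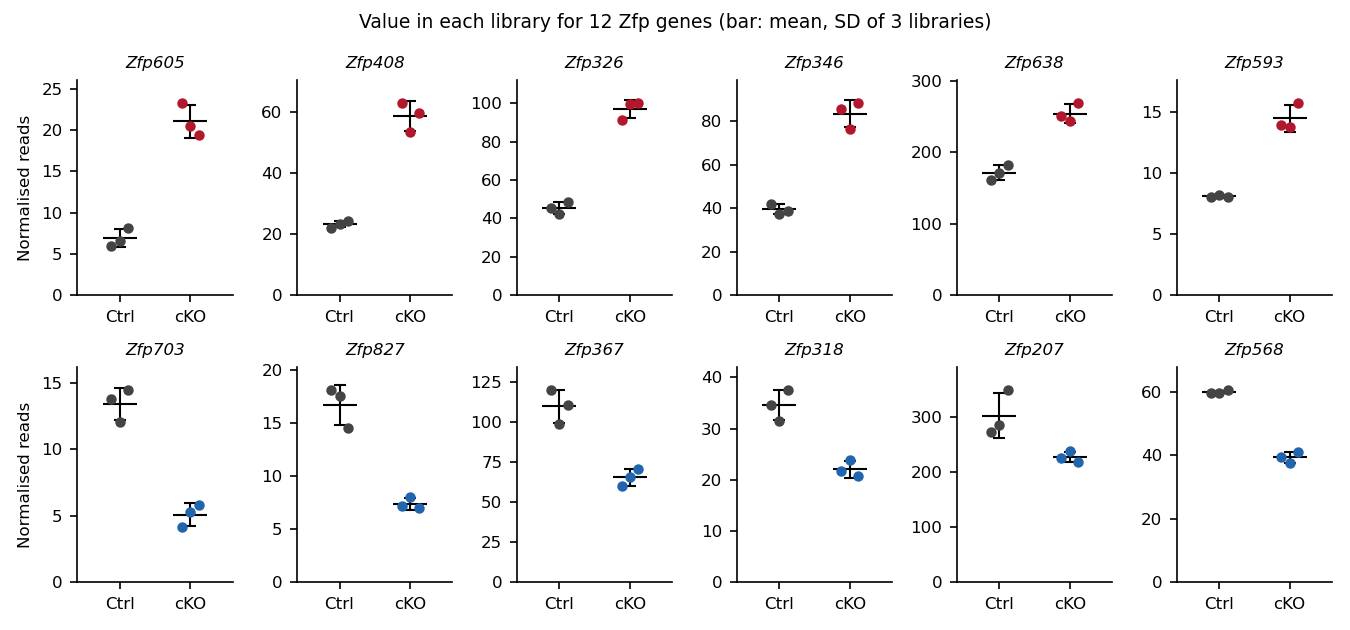
Normalised reads in each of the 3 Ctrl (dark) and 3 cKO libraries (red where the gene was called higher, blue where lower) for 12 Zfp genes, with bars for the mean and SD. In all 12 panels the Ctrl and cKO libraries do not overlap, from Zfp605 (Ctrl 6.002 to 8.19, cKO 19.4 to 23.3) to Zfp568 (Ctrl 59.7 to 60.4, cKO 37.6 to 41.1).

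Of 17 measured members known for transcription or lymphocyte roles, 2 were called higher, Zfp467 (above) and Zfp609, and 4 lower (35.3% called, against 52.7% of all genes). Zfp318 (chr17:46383515-46420920), which lets the transcript run on to the delta exons of Igh and so permits IgD in mature B cells, fell from 34.7, 31.6 and 37.5 to 21.7, 23.9 and 20.7 (log2 fold change -0.62, SE 0.11, adjusted P = 0.000147), all cKO libraries being below all Ctrl ones. The Ighd row, the delta constant gene, moved the other way, with 14.1, 17.9 and 15.04 in Ctrl and 20.4, 22.7 and 23.7 in cKO (0.48, SE 0.13, adjusted P = 0.00456). Zfp91, a ubiquitin ligase of the non-canonical NF-kB pathway, had 126.4, 124 and 128 in Ctrl and 86.9, 92.3 and 99.6 in cKO (-0.44, SE 0.08, adjusted P = 0.000154). Zfp217, an oncogene product of the CoREST corepressor complex, fell from 184, 172 and 169 to 120, 127 and 127 (-0.48, SE 0.08, adjusted P = 3.2e-05). For Zfp91 and Zfp217, too, no cKO library reached a Ctrl one. Zfp609, which works with the cohesin loader and Integrator, rose from 60.6, 61.4 and 64.9 to 94.0, 88.5 and 80.6 (0.48, SE 0.09, adjusted P = 0.00013), and its relative Zfp608 (42.6% identical) had 105, 102 and 113 against 113, 121 and 124 (0.16, adjusted P = 0.0948). Zfp384, a fusion partner in B cell leukaemia, was lower by a small step (-0.23, adjusted P = 0.0455), a call that was lost in 8 of 17 alternatives.

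The remaining members of that list were not called, with log2 fold changes between -0.16 and 0.18. They were Zfp521, an antagonist of the B lineage factor EBF1, Zfp281, Zfp148, Zfp143, Zfp335, Zfp410 (the activator of Chd4), Zfp131, Zfp292, Zfp266 and Zfp407. Scaled by total reads, Zfp143, Zfp335, Zfp131, Zfp292 and Zfp608 were called higher, and with median centring Zfp410, Zfp266 and Zfp407 were called lower. Zfp521 was low, with 7.60, 5.001 and 6.802 in Ctrl and 6.20, 4.46 and 7.21 in cKO, and its groups overlapped (-0.11, SE 0.20, adjusted P = 0.682). Zfp410 had 56.1, 51.6 and 51.5 against 51.7, 44.2 and 46.9 (-0.16, SE 0.09, adjusted P = 0.178).

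Of 9 members that act on RNA, ribosomes or the spindle 7 were called (77.8%, against 52.7% of all genes and 61.9% of other genes in level class 4), 4 higher and 3 lower. Zfp326 (chr5:105876556-105915818), a subunit of the DBIRD complex that links transcript elongation to splicing, rose from 45.6, 42.1 and 48.7 to 91.5, 99.7 and 100.2 (log2 fold change 1.08, SE 0.09, adjusted P = 1.21e-08). Zfp346 (chr13:55105271-55135071), which binds double-stranded RNA, rose from 42.0, 37.4 and 38.9 to 85.4, 76.5 and 88.3 (1.06, SE 0.09, adjusted P = 2.46e-08). In both, the lowest cKO library stood well above the highest Ctrl library, and the means differed by 2.14-fold and 2.12-fold. Zfp638, which silences unintegrated retroviral DNA and binds splicing factors, rose from 161, 172 and 182 to 251, 244 and 269 (0.57, SE 0.08, adjusted P = 6.03e-06). Zfp593, an export factor of the large ribosomal subunit, rose from 8.02, 8.23 and 7.99 to 13.9, 13.8 and 15.7 (0.77, SE 0.15, adjusted P = 0.000246).

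In the same list Zfp622, another assembly factor of the large subunit, fell from 69.7, 69.0 and 74.9 to 49.2, 61.5 and 57.6 (log2 fold change -0.34, SE 0.10, adjusted P = 0.00566). Zfp207 (BuGZ, chr11:80383279-80408561), a spindle protein that carries BUB3 to kinetochores, fell from 273, 285 and 348 to 226, 237 and 219 (-0.40, SE 0.09, adjusted P = 0.00076). Its Ctrl libraries varied more than its cKO libraries, yet did not overlap them. Zfp106, an RNA-binding protein of neurons and muscle, had 328, 407 and 371 against 325, 317 and 305 (-0.22, SE 0.08, adjusted P = 0.0294), a call lost in 7 of 17 alternatives. Zfp598, the ubiquitin ligase that senses collided ribosomes, had 85.3, 92.9 and 84.7 against 93.9, 96.5 and 104 (0.16, adjusted P = 0.109), and Zfp830, a splicing factor, was not called (0.25, adjusted P = 0.151). Under scaling by total reads Zfp598 and Zfp830 were called higher, and the falls of Zfp622, Zfp207 and Zfp106 were no longer called (log2 fold changes -0.14, -0.20 and -0.01).

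Per kilobase of annotated transcript the highest member in Ctrl was Zfp207, with 175, 182 and 223 normalised reads per kilobase, and 145, 152 and 140 in cKO. Zfp706, a small repressor of Klf4, followed with 54.0, 54.4 and 49.3 in Ctrl and 36.3, 34.2 and 37.0 in cKO (log2 fold change -0.55, adjusted P = 7e-06). Zfp106 came next at 36.1, 44.8 and 40.8, above Zfp445, Zfp871, Zfp869, Zfp367 and Zfp217, whose Ctrl means of 32.1 to 30.7 per kilobase lay within each other's spread. The 5 largest values before division by length belonged to Zfp106, Zfp871, Zfp207, Zfp706 and Zfp292, and of these Zfp871 (-0.11, adjusted P = 0.228) and Zfp292 (0.05, adjusted P = 0.595) were not called, Zfp871 being called lower with median centring.

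Of 6 KRAB proteins with known genomic targets 4 had a row, and 3 of them were lower, beside 25% of all genes and 39.8% of other genes in level class 4. Zfp568, which represses a placental promoter of Igf2, fell from 59.7, 59.7 and 60.4 to 39.5, 37.6 and 41.1 (log2 fold change -0.59, SE 0.09, adjusted P = 2.23e-05), with tight groups far apart. Zfp445, which keeps imprints, had 197, 185 and 213 in Ctrl and 174, 166 and 167 in cKO (-0.23, SE 0.08, adjusted P = 0.0174). Zfp809, which silences retroviruses through their primer binding site, had 25.6, 20.5 and 24.1 against 15.7, 11.95 and 22.0, with overlapping groups (-0.51, SE 0.17, adjusted P = 0.0197). The calls of Zfp445 and Zfp809 were each lost in 6 of 17 alternatives. Zfp932, a repressor of endogenous retroviruses, was not called (0.17, adjusted P = 0.585), and cKO replicate 3, at 7.04, stood above the others of its group (3.17 and 2.93).

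Of 42 listed cofactors of KRAB repression 21 were lower and 5 higher in cKO, with a median log2 fold change of -0.22. That is 50% lower and 11.9% higher, beside 25% and 27.7% of all genes, and the list is abundant (median Ctrl value 131), with 39.8% of other genes in level class 4 lower. Trim28, the corepressor that KRAB domains bind, fell from 549, 627 and 497 to 411, 407 and 417 (-0.43, SE 0.08, adjusted P = 0.000189). Setdb1, the methyltransferase of the complex, was not called (means 110 and 117, 0.09, adjusted P = 0.349), though it was called higher with total reads. The deepest falls were those of Uhrf1 (-0.93), Rbbp4 (-0.67), Rbbp7 (-0.65), Cbx5 encoding HP1 alpha (-0.59) and the maintenance methyltransferase Dnmt1 (-0.55), and the genes called higher were Mta3, Dnmt3b, Trim24, Tasor and Ehmt1, at 0.24 to 0.40. Several of these, such as Uhrf1, Dnmt1 and Rbbp4, are also known as genes of DNA replication. Scaled by total reads, 13 cofactors were lower and 14 higher, beside 14.4% lower and 38.5% higher of all genes.

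By protein sequence the family was split by a KRAB pattern, sought in 1 transcript per gene. Such a pattern can miss KRAB proteins, as the narrower one below missed Zfp445, Zfp568 and Zfp932. Members without a pattern may therefore include KRAB genes. The 297 members with a coding transcript in GENCODE M21 had a median of 11 C2H2 fingers and up to 33, as in Zfp619 and Zfp142. At least 1 was held by 98%, against 3.61% of all 20871 proteins searched. A finger was taken as C, 2 to 4 residues, C, 12 residues, H, 3 to 5 residues, H. A KRAB A box pattern was found in 91 members (30.6%, against 0.585% of all proteins), and a wider pattern, chosen after the data were seen, in 126 (42.4%, against 1.05%). With the wider pattern 38 members were higher and 12 lower (30.2% and 9.52%, median log2 fold change 0.18), and without it 35 were higher and 39 lower (20.5% and 22.8%, median -0.02), beside 27.7% and 25% of all genes. With the narrower pattern these counts were 25 and 8 (0.17) among those with it and 48 and 43 (0.05) among those without it.

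The KRAB members by the wider pattern were also lower genes (median Ctrl value 8.51, against 22.2 without it), so both splits were crossed. In level class 1 19 of 42 members with the wider KRAB pattern were higher and 1 lower, against 10 higher and none lower of 31 without it, beside 28.8% higher and 9.79% lower among other genes of that class. In class 2 13 of 39 were higher and 5 lower with the pattern, against 6 higher and 5 lower of 36 without it, beside 34.3% and 16.8% of other genes. In class 3 6 of 35 were higher and 3 lower with the pattern, against 9 higher and 11 lower of 39 without it, beside 32.8% and 20.9%. Class 4 held 10 members with the pattern. Of these none was higher and 3 were lower, against 10 higher and 23 lower of 65 without it, beside 22% and 39.8%. Between the number of fingers and the fold change Spearman's rho was 0.041 across 297 members, which share the 6 libraries. Of the 91 members with the narrower pattern 18 were higher and 15 lower under median centring (22.8% and 32.1% of all genes), 16 and 16 with quantile normalisation (24.8% and 27.9%), and 40 and 3 with total reads (38.5% and 14.4%).

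There were 6 members without a consensus finger. Of these Zfp365, Zfp330 and Zfp451 rose, Zfp703 fell and 2 were not called, beside 27.7% higher and 25% lower of all genes. Zfp365, a centrosome protein, went from 0.797, 1.26 and 1.44 to 4.15, 2.84 and 3.25 (log2 fold change 1.03, SE 0.22, adjusted P = 0.00061). Zfp330, a nucleolar protein, had 46.8, 49.96 and 54.4 against 64.5, 79.5 and 66.1 (0.46, adjusted P = 0.000707), and Zfp451, a SUMO ligase, 39.9, 36.2 and 44.6 against 53.1, 53.2 and 55.1 (0.42, adjusted P = 0.00163).

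Along the chromosomes 170 members lay in 20 runs of at least 4 members with neighbouring starts less than 1 Mb apart. Inside the runs 41 were higher and 24 lower (24.1% and 14.1%, median log2 fold change 0.09), and the 131 members outside had 34 and 27 (26% and 20.6%, median 0.08). Of all genes 27.7% were higher and 25% lower, which is the background for the single runs too. The run with the highest median was that of 7 members on chromosome 4 (chr4:146449030-147849126), part of a cluster of KRAB genes that expanded in the mouse lineage. All 7 had a log2 fold change above 0, 5 were called higher, and the median was 1.16. Zfp991, Zfp992, Zfp993, Zfp982 and Zfp985 lie in level class 1, the lowest, where 39.5% of members were higher and 1.32% lower. Zfp991 had 2.28, 3.69 and 5.41 in Ctrl and 10.3, 8.70 and 12.01 in cKO (1.28, SE 0.22, adjusted P = 8.45e-05), and Zfp992 had 3.45, 6.52 and 2.83 against 11.4, 12.8 and 8.89 (1.24, SE 0.23, adjusted P = 0.000161). The proteins of these neighbours are 98.95% identical, so reads cannot be assigned between them with confidence. With the pair taken as 1, at the mean of its fold changes, a choice made after the values were seen, the run has 6 members, 4 of them called higher, and a median of 1.02.

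Zfp993 in the same run was nearly silent in Ctrl, with 0.372, 0.657 and 0.646, and reached 2.49, 2.66 and 2.91 in cKO (log2 fold change 1.25, SE 0.21, adjusted P = 6.26e-05). Its row passed the filter only with cKO libraries counted. Zfp982 went from 0.584, 1.57 and 0.546 to 4.05, 3.20 and 2.32 (1.16, SE 0.24, adjusted P = 0.00058). Zfp984, the most abundant of them, went from 15.1, 17.8 and 17.7 to 29.3, 35.9 and 30.5 (0.88, SE 0.12, adjusted P = 9.25e-06). None of these groups overlapped. Zfp985 (0.14, adjusted P = 0.645) and Zfp933 (0.30, adjusted P = 0.104) were not called, though Zfp933 was with total reads and without Ctrl replicate 3.

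In 5 members on chromosome 8 (chr8:69209018-69774911) 4 were higher, with Zfp963 at 0.56, Zfp868 at 0.51, Zfp930 at 0.45 and Zfp869 at 0.24 on the log2 scale, and the calls of Zfp963 and Zfp869 were lost in 8 and 7 of 17 alternatives. The run of 22 on chromosome 17 (chr17:21008941-23564226) had 6 higher, led by Zfp229 (1.08, SE 0.19, adjusted P = 7.96e-05), and 1 lower. The run of 18 on chromosome 13 was split, with 4 higher, led by Zfp455 (1.07, adjusted P = 0.000565), and 3 lower. On chromosome 15 (chr15:75615200-76925693) none of 6 was higher and Zfp707, Zfp7 and Zfp41 were lower (median -0.31). A run of 5 on chromosome 7 (chr7:4915181-5038446) had the lowest median, -0.36, with Zfp865 at -0.68 (adjusted P = 9.2e-05), whose exons overlap those of Zfp784 and Ccdc106. In the other 14 runs the medians lay between -0.13 and 0.22. Their largest changes included Zfp78 (0.95), Zfp976 (0.98), Zfp689 (0.88), Zfp940 (0.60), Zfp952 (0.62), Zfp108 (0.78) and Zfp26 (-0.49), while Zfp248, Zfp551 and Zfp60 were not called and Zfp617 (0.41) and Zfp39 (-0.36) were called with adjusted P of 0.0387 and 0.0463.

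**Figure D4:**
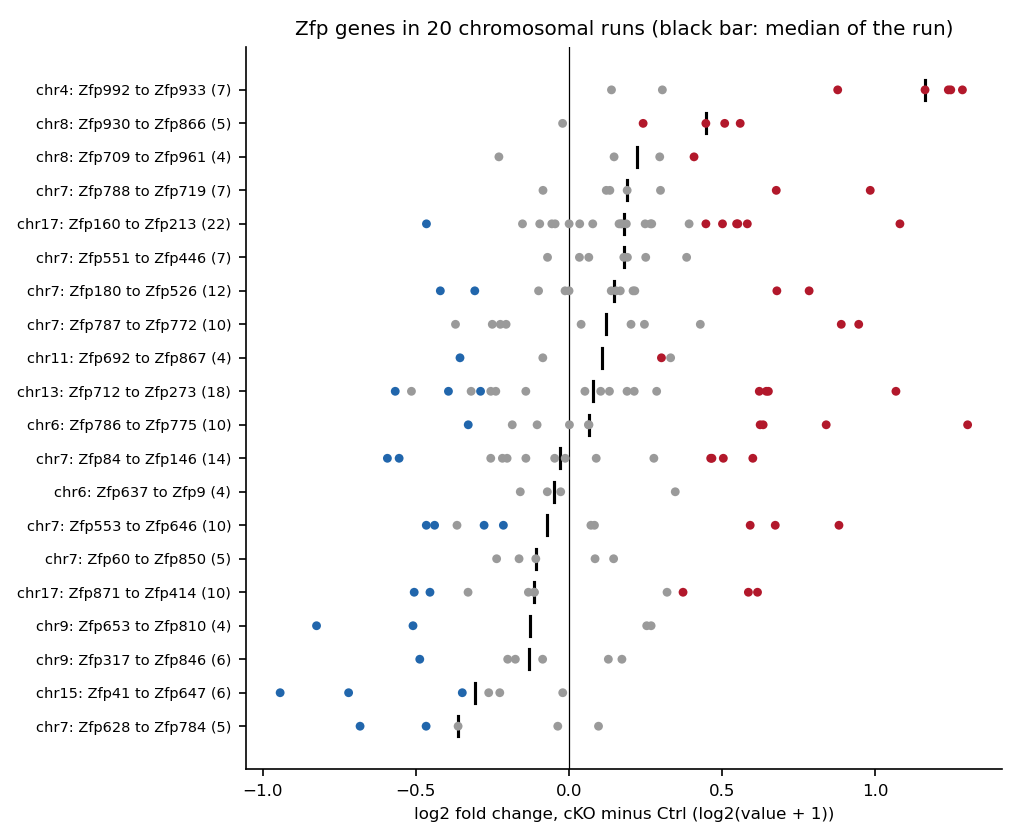
Log2 fold change (cKO minus Ctrl) of the Zfp genes in 20 chromosomal runs, 1 row per run with its first and last gene and, in brackets, its number of genes, sorted by median (black bar). Red points were called higher, blue lower and grey not called, and the chromosome 4 run stands at the top with a median of 1.16.

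Gene structure was compared because UPF1 acts in NMD. GENCODE M21 lists a transcript of the NMD class for 57 members (18.9%, against 26.3% of other genes). Of these 21 were higher and 9 lower (median log2 fold change 0.14), and of the 244 members with no such transcript 54 were higher and 42 lower (0.06). Other genes showed the same order, with 37.2% higher and 19.6% lower among the 3454 with such a transcript (0.12) and 24.5% and 27.1% among those without it (-0.03). Zfp523 and Zfp346 each have 4 such transcripts, Zfp408 and Zfp326 have 1, and so do Zfp703 and Zfp827, which fell. An exon junction more than 50 bases past the stop codon, a feature that marks a transcript for NMD, was found in the main transcript of Zfp41 and Zfp287. Zfp41 had 65.0, 48.6 and 45.7 in Ctrl and 41.2, 39.1 and 42.7 in cKO (-0.35, adjusted P = 0.017), a call lost in 4 of 17 alternatives, and Zfp287 was not called. Gene-level values do not show which transcript changed.

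Member transcripts were poorer in G and C than those of other genes (median 44.6% against 50.5%), and calls were counted by this content. In the lowest of 3 equal GC classes of members, up to 41.3%, 30% were called higher and 8% lower, while of 854 other genes in the same range 22% were higher and 28.5% lower. In the highest class, above 48.9%, 20.2% of members were higher and 26.3% lower, beside 30.4% and 24.9% of other genes. The part of sequence content, of level and of the KRAB class in this pattern was not separated, and the difference was not tested. Between transcript length and fold change Spearman's rho was -0.094 across 298 members.

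Start site sequences were read from the RefSeq promoter windows of GRCm38.p6, using the 250 bases before each start, which were given for 250 members. The starts are those of the windows and can lie inside the limits of the gene, as for Zfp605 and Zfp638. Among words of 8 bases present in at least 20 members, on either strand, AATGTAGT was the most over-represented: 33 members (13.2%) held it, against 1.22% of 27025 genes. The letters TCACTCA were held by 32 members (12.8%, 4.42% of all genes), ACTTCCG by 46 (18.4%, 5.58%) and CCAATCAG, which contains the CCAAT box bound by NF-Y, by 37 (14.8%, 4.43%). These words were picked after the sequences and values had been seen, members of a cluster share sequence by descent, and the counts of calls below are a description with no test. Members with AATGTAGT had 8 rises and 2 falls (median log2 fold change 0.08) and those without it 56 and 36 (0.10), beside 27.7% and 25% of all genes. Their median Ctrl values were 6.72 and 15.4, while for the next 3 words holders and others had medians between 13.7 and 14.4. Members with TCACTCA had 12 rises and 2 falls (0.28) and those without it 52 and 36 (0.06), and with CCAATCAG there were 15 and 5 (0.19) against 49 and 33 (0.08). With ACTTCCG there were 11 and 7 (0.15) and without it 53 and 31 (0.08).

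A longer form, TCACTCAAG, which contains TCACTCA, was found in 13 members (5.2%, against 0.418% of all genes). Of these 7 were higher and none lower (median 0.35), with 57 higher and 38 lower among the 237 others, beside 27.7% higher and 25% lower of all genes. Holders were lower genes, with a median Ctrl value of 5.03 against 15 for the others, and in level class 1, the lowest, 39.5% of all members were higher and 1.32% lower. The members were Zfp937, Zfp938, Zfp958, Zfp931, Zfp638, Zfp442, Zfp970, Zfp867, Zfp869, Zfp971, Zfp932, Zfp68 and Zfp97, which lie on 7 chromosomes. The 5 with the highest and the 3 with the lowest fold change are shown as 30 bases, read 5′ to 3′ so that the word reads forward, to set the block beside its surroundings. Capitals mark TCACTCAAG and CCAATCAG. The stretch of Zfp638 lies inside the limits of that gene (chr6:83867068-83986871), and there the word is on the strand opposite to the gene.
Zfp937, chr2:150218019-150218048, plus strand: atgTCACTCAAGactcactagCCAATCAGc
Zfp938, chr10:82241337-82241366, minus strand: ctgTCACTCAAGcctcactagCCAATCAGg
Zfp958, chr8:4613084-4613113, plus strand: ctgTCACTCAAGactcattggCCAATCAGg
Zfp931, chr2:178078525-178078554, minus strand: atgTCACTCAAGactccataaCCAATCAGa
Zfp638, chr6:83914197-83914226, minus strand: acaTCACTCAAGattttagaacctgcaaac
Zfp932, chr5:109996434-109996463, plus strand: gagTCACTCAAGacttactggCCAATCAGa
Zfp68, chr5:138619827-138619856, minus strand: ctgTCACTCAAGgggctggacccggagccc
Zfp97, chr17:17121267-17121296, plus strand: ctgTCACTCAAGatttactagccaatcaca

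Among the stretches shown, those of Zfp937, Zfp938, Zfp958, Zfp931 and Zfp932 held both words at the same distance from each other. Zfp442, Zfp970, Zfp867, Zfp869, Zfp971 and Zfp68 also held both words in their windows, at distances not shown. Of these, Zfp442 and Zfp869 were called higher, and Zfp970, Zfp867, Zfp971 and Zfp68 were not called. Zfp958 rose from 12.3, 14.6 and 13.9 to 24.2, 28.5 and 27.2 (log2 fold change 0.92, SE 0.13, adjusted P = 7.66e-06) and Zfp931 from 1.22, 2.17 and 1.04 to 3.27, 2.93 and 3.92 (0.84, SE 0.22, adjusted P = 0.00391), both with groups apart, whereas Zfp932 with the same pair of words was not called. Zfp442, also called higher here, was near the threshold (0.56, adjusted P = 0.0434) and lost the call in 10 of 17 alternatives. For AATGTAGT, the 3 holders with the highest and the 2 with the lowest fold change are shown, since rises and falls both carried it, with the word in capitals.
Zfp605, chr5:110110062-110110091, plus strand: gatctctgggaAATGTAGTtctacatcgac
Zfp108, chr7:24254663-24254692, plus strand: tcgttctgggaAATGTAGTcccagaaaaag
Zfp111, chr7:24208191-24208220, minus strand: gcattctgggaAATGTAGTcccaaaagagc
Zfp458, chr13:67269150-67269179, minus strand: gacttgtgggaAATGTAGTcccaacaatta
Zfp420, chr7:29859909-29859938, minus strand: tggctctgggaAATGTAGTccaatggctgg
In all of these the letters tggga preceded the word, from Zfp605 at 1.48 to Zfp420 at -0.55 on the log2 scale. In Zfp420 the word is on the strand opposite to the gene. Zfp108 had 0.0531, 0.556 and 0.248 in Ctrl, where the first library held no read, and 1.32, 1.76 and 0.632 in cKO (0.78, SE 0.24, adjusted P = 0.0115).

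Zinc finger families with other names were counted beside them. Of 39 Zbtb genes 7 were higher and 7 lower (median log2 fold change -0.03), of 19 Zscan and Zkscan genes 6 and 5 (-0.09), of 16 Klf and Sp genes 5 and 4 (-0.04) and of 19 Zc3h genes 5 and 5 (0.07). Of all genes 27.7% were higher and 25% lower. No test of a difference between these families and the Zfp genes was made.

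**Figure D5:**
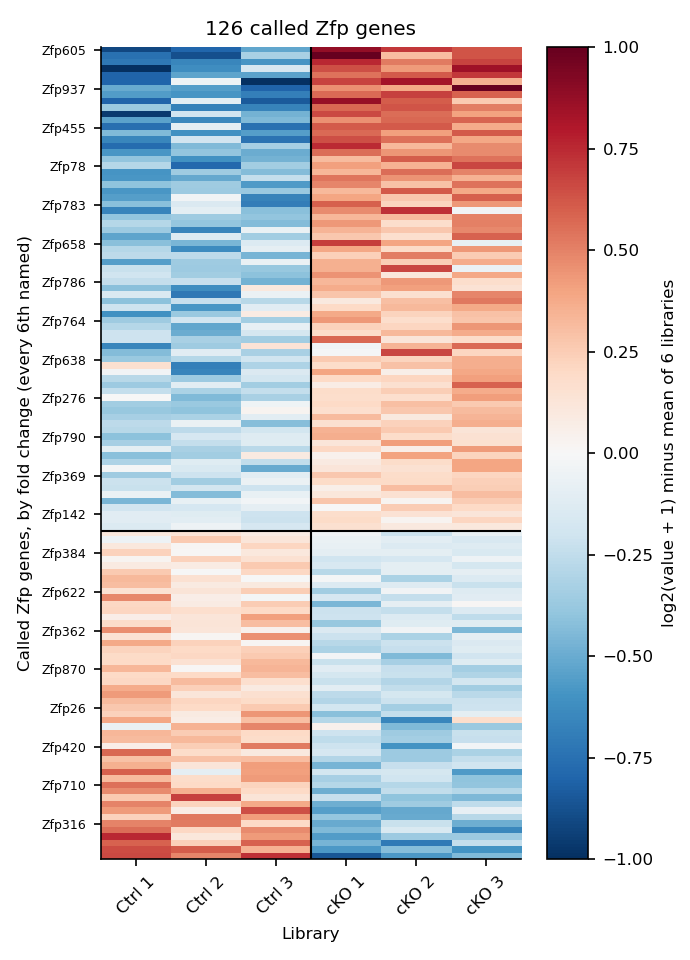
The 126 called Zfp genes (rows, sorted by fold change, every 6th named) in the 3 Ctrl and 3 cKO libraries, coloured by log2(value + 1) minus the mean of the gene's 6 libraries. The horizontal line divides the 75 genes called higher from the 51 called lower, and each group of 3 libraries has one colour in most rows.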

How the data were processed

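Early LPre-B RNA was depleted of ribosomal RNA and made into directional single-end libraries. The authors trimmed reads with cutadapt 4.0, aligned them with HISAT2 to mm10 without strand and counted them with featureCounts 2.0.1 (labels and methods). The deposited table gives 1 linear signal for each gene and library, which from its values is (reads + 0.5) per effective library size in units of 1e6; every value (100%, tolerance 0.1) was an odd multiple of the column minimum, so whole reads were recovered for edgeR and DESeq2. Of 13426 rows 13008 were named from RefSeq GRCm38.p6 and 3 from GENCODE M21. limma 3.58.1 (R 4.3.3) was fitted to log2(value + 1) over all rows with eBayes trend and robust settings, no covariate beside group, and p-values adjusted by Benjamini and Hochberg. Folds on this scale understate changes of low genes. Adjusted p-values without a named tool come from limma, and a gene was called below 0.05. edgeR 4.0.16, DESeq2 1.42.0, voom, other scalings, pseudocounts and left-out libraries were alternatives.

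Members and lists were chosen with earlier results of these data known. Named genes were members with a textbook role, the 10 largest called rises and falls with groups apart, the 5 highest in Ctrl and the largest change of each run, plus Upf1, Ighd and Trim28. Other genes named were chosen after their values were seen, among them members of the runs, of the promoter words and without a finger. Proteins were translated from 1 GENCODE transcript per gene and compared by blastp 2.17.0. Same-numbered Ctrl and cKO libraries did not deviate together, so numbers were not used as pairs. Whether libraries came from separate mice is given by the study only as biological replicates, and p-values measure the spread between these libraries.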

Additional observations from a re-analysis of the deposited data

How the results depend on the processing

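The counts of called Zfp genes stayed within 1.5 times of 75 and 51 in all alternatives except scaling by total reads (120 and 22) and the restriction to members without exon overlap (24 lower, with fewer members by construction). The median log2 fold change of 0.08 moved to -0.023 with median centring, -0.026 with quantile normalisation and 0.27 with total reads, and its distance from the median of all genes, 0.075, moved to 0.020 with quantile normalisation. The difference between members and other genes of similar Ctrl level, averaged over 4 level classes, was -4.599 percentage points called higher, and became -2.67 with eBayes without trend and -0.324 with total reads. With 1 library left out it ranged from -6.06 (without Ctrl replicate 2) to -2.82 (without cKO replicate 1), and that of the points called lower, -4.829, ranged from -7.78 (without cKO replicate 2) to -3.24 (without Ctrl replicate 2). Splitting the levels by the mean over all 6 libraries, chosen after seeing the data, gave -4.41 and -5.33. Apart from the smaller number of members, the cause of these moves was not tested. Same-numbered Ctrl and cKO libraries had correlations of 0.082, -0.03 and -0.021, and the numbers were not used as pairs. Their column headers carry adjacent sample numbers, and low correlations do not show whether the libraries were collected in pairs. With the replicate block 74 members were called higher and 49 lower.

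None of the 70 named genes that were called changed direction, and 16 of them lost the call in at least 1 alternative, Zfp442 and Zfp39 in 10 and Zfp617 in 9 of 17. Of the named genes that were not called, 15 gained a call in at least 1 alternative. With total reads Zfp143, Zfp335, Zfp131, Zfp292, Zfp608, Zfp598, Zfp830, Zfp551, Zfp933 and Setdb1 were called higher, and with median centring Zfp410, Zfp266, Zfp407, Zfp871 and Zfp60 were called lower. Without Ctrl replicate 3 Zfp131, Zfp830 and Zfp933 were called higher, and without Ctrl replicate 2 Zfp407 and Zfp871 lower. With quantile normalisation Zfp131, Zfp608 and Zfp598 were called higher and Zfp60 lower, and with eBayes without trend Zfp551 was called higher. Among named genes that were not called, 12 changed sign. With total reads the log2 fold changes were 0.068 for Zfp521, 0.19 for Zfp281, 0.15 for Zfp148, 0.044 for Zfp410, 0.12 for Zfp266, 0.039 for Zfp407 and 0.090 for Zfp871. With quantile normalisation they were 0.020 for Zfp148, -0.021 for Zfp932, 0.035 for Zfp871 and -0.026 for Zfp985, and with median centring -0.019 for Zfp143, -0.058 for Zfp292 and -0.019 for Setdb1. With 1 library left out they ranged from -0.26 to 0.058 for Zfp521, -0.12 to 0.090 for Zfp281, -0.019 to 0.12 for Zfp292, -0.16 to 0.36 for Zfp932 and -0.022 to 0.32 for Zfp985. The cause was not tested. With 10 members under 10 reads per Ctrl library, depth limits the folds of the lowest genes.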

Other observations

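Besides the Zfp genes, the table held 178 genes under other names whose protein has at least 3 C2H2 fingers. Of these 46 were called higher and 50 lower in cKO, relative to the authors' scaling, with a median log2 fold change of -0.04. The 26 of them with the wider KRAB pattern had 8 higher and 3 lower (median 0.19), and the 152 without it had 38 higher and 47 lower (-0.08). These are 30.8% and 11.5% with the pattern and 25% and 30.9% without it, beside 27.7% higher and 25% lower of all genes. The groups of genes also differed in level, with median Ctrl values of 7.54 and 24.3 normalised reads, and no test of a difference between them was made.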
